A study of Mus musculus with 6 samples.

Results

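Keratins, the small proline-rich (Sprr) proteins and the proteins of desmosomes were described in mouse kidney RNA sequencing from 6 libraries. The genes were taken by name: every numbered keratin (Krt), Sprr, desmoglein (Dsg), desmocollin (Dsc) and plakophilin (Pkp) gene, with desmoplakin (Dsp), plakoglobin (Jup), periplakin (Ppl), envoplakin (Evpl) and involucrin (Ivl). The rule found 86 of the 22183 genes in the table, namely 53 keratins, 15 Sprr genes, 15 desmosome genes and 3 other genes of the cornified envelope. The 3 control libraries came from kidneys of mice given the empty vector pcDNA3, and their genotype is labelled control. The 3 Wnt1 libraries came from kidneys of mice given the Wnt1 plasmid, and their genotype is labelled as overexpression of the Wnt1 gene. Wnt1 is a secreted protein that acts on cells through beta-catenin. The labels give no strain, age, sex, time after plasmid delivery or injury procedure, and none of them says which kidney cells took up the plasmid. Whether each library is a different animal is not stated there, so p-values cover only the spread among these samples, part or all of which may be technical. The question addressed was how these genes differed between kidneys of mice given the Wnt1 plasmid and of mice given the empty vector.

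Keratins form intermediate filaments as obligate pairs of an acidic type I chain and a basic type II chain. Simple epithelia such as kidney tubules and collecting ducts mainly use Krt8 and Krt18, with Krt7 and Krt19 in ducts, while stratified epithelia use Krt5 and Krt14 in their basal layer and other pairs above it. Filaments end at desmosomes, junctions in which the cadherins Dsg and Dsc bind across the cell gap and plakoglobin and plakophilins link them to desmoplakin, which holds the keratin. Sprr proteins, involucrin, envoplakin and periplakin are cross-linked into the cornified envelope under the membrane of squamous cells.

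Library totals ran from 23585040 to 27218091 expected counts. Kidney markers were abundant: 10 proximal tubule genes summed to between 35673 and 42798 CPM (counts scaled to a common library size) in controls and to between 6294 and 9532 CPM in Wnt1 libraries. Control replicate 3 and Wnt1 replicate 3 stood apart from the other 4 libraries on the second principal component of all tested genes, at -29 and -50.1 against 16.2 to 22.1. Where a call among the genes described rests on these libraries, it is given with and without both. CPM were scaled by TMM factors, which ran from 0.848 to 0.879 in controls and from 1.12 to 1.19 in Wnt1 libraries. Scaling by library totals in their place moved the median log2 change of all tested genes from 0.05 to 0.47. In whole kidney, fewer cells of a type and less RNA per cell cannot be told apart. A count of 0 allows up to 3 counts, which were worth 0.0951 to 0.138 CPM per library, and such limits cover counting error only.

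In kidneys of mice given the Wnt1 plasmid, the simple-epithelium keratins Krt20, Krt19, Krt18, Krt8 and Krt7 rose, from 108-fold for Krt20 to 1.8-fold for Krt7. So did the basal keratins Krt15, Krt14 and Krt5, the stress keratin Krt17, the junction genes Dsg2, Dsc2 and Dsp, the plakin Ppl and the genes Sprr1a and Sprr2f. Pkp4 fell to 0.509 of its control level. Sprr2f had no read in any control library. Of the 86 genes, 29 had enough counts to be tested. By edgeR's quasi-likelihood test with Benjamini-Hochberg adjustment over all 14432 tested genes, 15 of the 29 (51.7%) were called higher at an adjusted p under 0.05, where 22.4% of all tested genes were. Lower calls went to 1 of the 29 (3.45%), Pkp4, where 18.7% of all tested genes were called lower. The median log2 change of the 29 was 0.94. Of the 29, 23 were over the filter's level in all 3 control libraries, and 11 of these were called higher and 1 lower. The other 6, namely Krt20, Krt17, Krt14, Krt4, Ivl and Sprr2f, were below it in at least 1 control library and over it in every Wnt1 library, so that they entered the test through the Wnt1 libraries. With both libraries numbered 3 left out, 15 members were called higher and 5 lower, and 32.0% and 30.4% of all genes tested there. DESeq2 called 16 members higher and 2 lower, and 20.5% and 19.0% of all genes it tested. The members tested in these 2 fits were not counted, so no share of members is given beside those of all genes. Of the 57 untested genes, 35 had no count in any library and none had more than 14 counts in a library. All 3 Wnt1 libraries lay above all 3 controls for 16 of the 29 genes and below them for 2, where this held for 28.2% and 25.3% of all tested genes. Krt20, Krt17, Krt14, Krt4 and Sprr2f, which entered the test through the Wnt1 libraries, are among the 16. The 51.7% and the median of 0.94 include all 6 such genes, of which 4 were called higher.

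**Figure D1:**
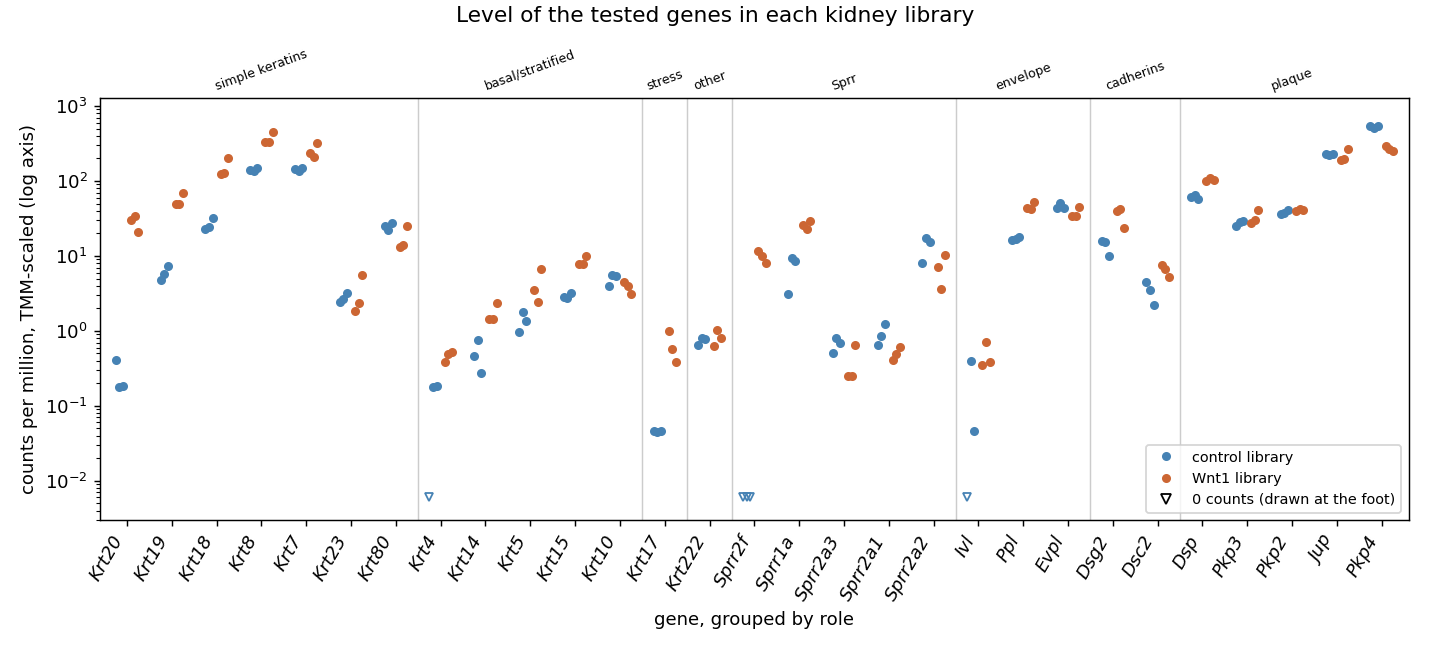
Level of each tested gene in each library in CPM (TMM-scaled, log axis), ordered by role, with 1 point per library and open triangles for 0 counts. Krt20, Krt19, Krt18, Krt8 and Ppl stand clear of the controls in every Wnt1 library, while Pkp4 lies below them and Jup, Pkp2 and Pkp3 overlap them.

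All 7 keratins of simple epithelia were tested, and 5 (71.4%) were called higher and none lower. The shares of all tested genes were 22.4% and 18.7%. Krt20, 1 of the 5, entered the test through the Wnt1 libraries, so the 71.4% is favoured by the filter. Krt20, a type I keratin of gut and bladder surface epithelium that also marks injured tubules, had 0.414, 0.177 and 0.183 CPM in control replicates 1, 2 and 3. In Wnt1 replicates 1, 2 and 3 it had 30.6, 33.7 and 20.8 CPM. The controls were near the lowest measurable level and every Wnt1 library was far above them, with replicate 3 the lowest of the 3. The log2 change was 6.76 ± 0.36 (SE), with an adjusted p of 2.68e-05 by edgeR's quasi-likelihood test, the same test as for every adjusted p given here. The gene lies on the minus strand of chromosome 11 at 99428403 to 99438150 (GRCm38, as are all positions here). The 250 bases before its start in RefSeq (GRCm38.p6), chr11:99438154-99438403 on the minus strand, are shown because it changed most among genes with control counts, with capitals for a TATA box.
Krt20: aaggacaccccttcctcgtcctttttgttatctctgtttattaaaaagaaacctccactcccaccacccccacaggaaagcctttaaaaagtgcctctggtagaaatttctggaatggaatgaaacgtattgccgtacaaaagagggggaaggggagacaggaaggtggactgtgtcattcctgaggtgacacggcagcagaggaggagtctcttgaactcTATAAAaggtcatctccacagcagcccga

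Krt19, the smallest type I keratin, which is found in ducts and regenerating epithelium, had 4.74, 5.67 and 7.44 CPM in controls. It had 49.9, 48.8 and 68.8 CPM in Wnt1 libraries. The groups did not overlap, replicate 3 was the highest in both, and the log2 change was 3.23 ± 0.23 (adjusted p = 6e-05). For Krt18, the type I partner of Krt8, controls had 23.1, 24 and 32.2 CPM and Wnt1 libraries 124, 127 and 202 CPM. Again replicate 3 was the highest of each group, with a gap between the groups, and Krt18 rose by 2.51 ± 0.24 on the log2 scale (adjusted p = 0.000181). Krt8, the main type II keratin of simple epithelia, had 142, 138 and 151 CPM in controls and 331, 334 and 454 CPM in Wnt1 libraries. Its log2 change was 1.38 ± 0.16 (adjusted p = 0.000373), smaller than those of its type I partners. Of its 50-base words, 26.9% also occur in the pseudogene Krt8-ps, so part of its reads could be placed in either. Krt7, the type II keratin of ducts, had 146, 135 and 149 CPM in controls and 239, 212 and 323 CPM in Wnt1 libraries. It rose by 0.85 ± 0.17 on the log2 scale (adjusted p = 0.00533), with no overlap between the groups.

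The other simple keratins were Krt23 and Krt80, and neither was called. Krt80, a type II keratin of many epithelia, had 25.2, 22.3 and 27.7 CPM in controls and 13.1, 14.1 and 25.3 CPM in Wnt1 libraries. Wnt1 replicates 1 and 2 were below every control and replicate 3 was within the control range. The log2 change was -0.52 ± 0.26 (adjusted p = 0.151), and -0.81 (adjusted p = 0.000536) with both libraries numbered 3 left out, so the call for Krt80 rests on which libraries are used. Krt23, a type I keratin, had 2.44, 2.66 and 3.24 CPM in controls and 1.84, 2.34 and 5.65 CPM in Wnt1 libraries. Replicates 1 and 2 of the Wnt1 group were below the controls and replicate 3 was above them. The log2 change of Krt23 was 0.23 ± 0.43 with all libraries and -0.42 without Wnt1 replicate 3, neither of them called.

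Markers of other kidney cells were read beside these keratins. Of all tested genes, 22.4% were called higher and 18.7% lower, and 32.0% and 30.4% without both libraries numbered 3. All 9 markers of injured tubule were called higher, with a median log2 change of 4.56, and their summed level went from between 1547 and 1915 CPM in controls to between 14103 and 22183 CPM in Wnt1 libraries. None of them was at 0 in all libraries. Timp1 and Sox9 averaged 0.318 and 0.484 CPM in controls and entered the test through the Wnt1 libraries. The 9 of 9 and the median are therefore favoured by the filter. Of 10 proximal tubule markers, 9 were called lower and none higher, and 10 lower without both libraries numbered 3. Collecting duct markers, from cells that hold Krt7, Krt8, Krt18 and Krt19, gave 0 of 11 called higher and 1 lower, with sums of 1555 to 1730 CPM in controls and 1145 to 1583 CPM in Wnt1 libraries. Without both libraries numbered 3, 6 of the 11 were called lower and none higher, among them Aqp2 (-0.93), the water channel of principal cells. In the mesothelium list, whose cells also hold simple keratins, 4 of 6 genes were tested, with 1 called higher (Msln) and 1 lower (Gpm6a). The sum of that list was 141 to 185 CPM in controls and 91.6 to 99.2 CPM in Wnt1 libraries. Without Gpm6a, its most abundant gene, it was 18, 21.1 and 23.1 CPM in controls and 18.8, 16.4 and 43.3 CPM in Wnt1 libraries, which overlapped, with Wnt1 replicate 3 the highest. Wt1 was the largest part of this sum except in Wnt1 replicate 3, where Upk3b was. Lrrn4 and Muc16 had at most 0.0708 and 0.046 CPM in any library. Outside Wnt1 replicate 3 the sum thus mainly follows Wt1 and says little about the other genes of the list. Neither Wt1 nor Upk3b was called, and Lrrn4 and Muc16 were not tested. These genes were named after their values were seen. Msln had 0.736, 1.33 and 1.6 CPM in controls and 3.2, 2.16 and 6.53 CPM in Wnt1 libraries, with no overlap (log2 change 1.69, adjusted p = 0.0236). The part of these cell types in the keratin changes was not tested.

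Because filaments need both chains, the keratins were also summed per type on a scale that corrects for length, the deposited FPKM (fragments per kilobase of transcript, relative to the library total). FPKM carries no factor for composition, so ratios within a library are given. Type I keratins summed to 22.3, 24.2 and 29.5 FPKM in controls and to 166, 175 and 233 FPKM in Wnt1 libraries. Type II keratins summed to 106, 105 and 110 FPKM in controls and to 283, 278 and 376 FPKM in Wnt1 libraries. Type II chains exceeded type I chains in every library, and both sums were higher in every Wnt1 library than in every control. The ratio of type I to type II FPKM was 0.211, 0.231 and 0.267 in controls and 0.587, 0.632 and 0.618 in Wnt1 libraries, 2.59-fold higher in the mean (0.236 ± 0.0287 against 0.612 ± 0.0228, SD, n = 3 each). No test was run on these sums and ratios.

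**Figure D2:**
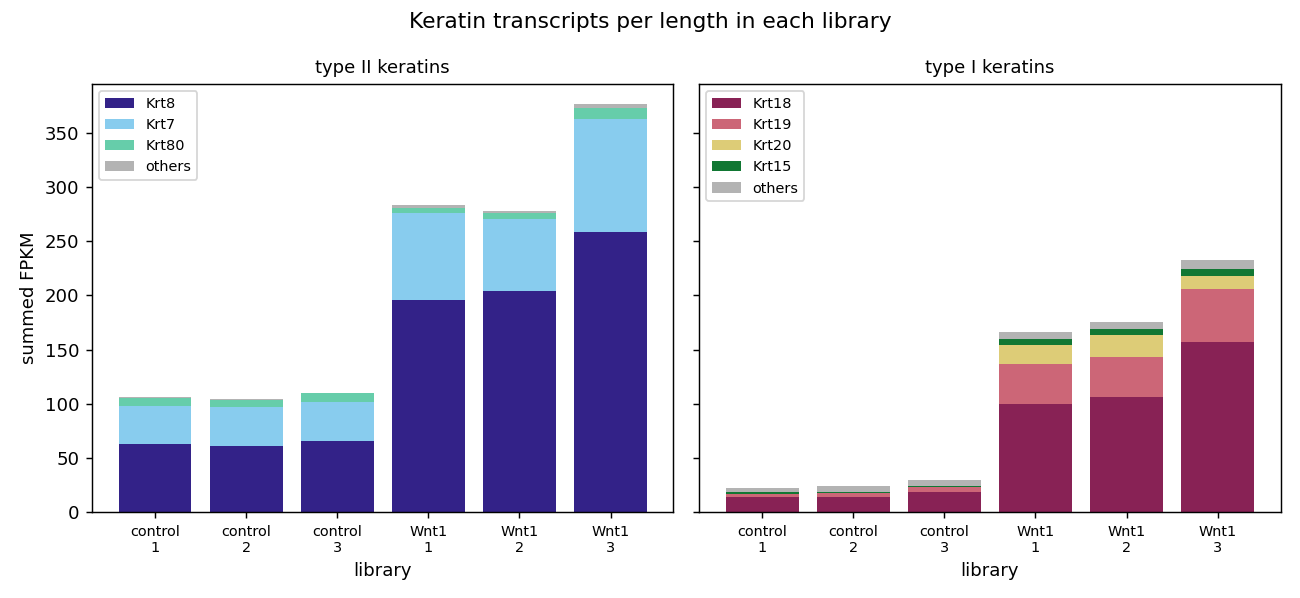
Summed FPKM of type II keratins (left) and type I keratins (right) in each library, with 1 bar per library and segments for the main genes. The type II sums run from 105 to 110 in controls and from 278 to 376 in Wnt1 libraries, and the type I sums from 22.3 to 29.5 and from 166 to 233.

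Within the pool of keratin FPKM, Krt8 held 46.8% to 49.5% in controls and 42.5% to 45% in Wnt1 libraries, the largest share in both groups. Krt7 was second in controls at 26% to 28.1% and held 14.6% to 17.8% in Wnt1 libraries. Krt18 went from between 11% and 13.6% to between 22.2% and 25.8%, above Krt7 in every Wnt1 library. Krt19 held 2.06% to 2.86% of the pool in controls and 8.01% to 8.17% in Wnt1 libraries. Krt20 held at most 0.147% in controls and 1.98% to 4.62% in Wnt1 libraries. The Krt18 to Krt8 ratio of FPKM was 0.223, 0.236 and 0.29 in controls and 0.509, 0.518 and 0.607 in Wnt1 libraries. The ratio of Krt7 to Krt8 went the other way, from 0.545, 0.593 and 0.555 to 0.408, 0.325 and 0.4, so the pair of type II genes changed unequally. Neither ratio overlapped between the groups.

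Among keratins of stratified epithelia, 5 of 15 were tested, and 3 (60%), Krt15, Krt14 and Krt5, were called higher and none lower. Krt14, and Krt4, which was not called, entered the test through the Wnt1 libraries, so the 60% depends on the filter. Of all tested genes, 22.4% were called higher and 18.7% lower. Krt15, a type I keratin of basal cells, had 2.85, 2.79 and 3.2 CPM in controls and 7.73, 7.72 and 9.9 CPM in Wnt1 libraries. The libraries within each group lay close together, and the log2 change was 1.52 ± 0.19 (adjusted p = 0.000633). Krt14, the basal type I keratin that pairs with Krt5, had 0.46, 0.753 and 0.274 CPM in controls and 1.43, 1.45 and 2.39 CPM in Wnt1 libraries. Its log2 change was 1.81 ± 0.42 (adjusted p = 0.0104), and 1.23 (adjusted p = 0.0207) without both libraries numbered 3. Krt14 shares 11% of its 50-base words with Krt16, which had 1 read in all. Krt5 had 0.966, 1.77 and 1.37 CPM in controls and 3.49, 2.41 and 6.68 CPM in Wnt1 libraries. Every Wnt1 library was above every control, and replicate 3 was the highest by a wide margin. The log2 change of Krt5 was 1.61 ± 0.43 (adjusted p = 0.0178), but the call was lost without control replicate 1 (1.45, adjusted p = 0.0518) or control replicate 3 (1.67, adjusted p = 0.051).

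Levels of the basal keratins were low next to those of simple epithelia. Per length, Krt5 stood at 0.538 ± 0.156 FPKM (SD, n = 3) in controls and 2.18 ± 1.09 FPKM in Wnt1 libraries, and Krt8 at 63.4 ± 2.2 and 220 ± 34.3 FPKM. Krt4, the type II keratin of the oesophagus and other wet stratified linings, had 0, 0.177 and 0.183 CPM in controls and 0.38, 0.496 and 0.531 CPM in Wnt1 libraries. The groups were apart, with a log2 change of 1.91 ± 0.67 that narrowly missed the threshold (adjusted p = 0.0516). Krt10, a type I keratin of the upper epidermis, had 4, 5.63 and 5.43 CPM in controls and 4.47, 4 and 3.15 CPM in Wnt1 libraries, which overlapped. The log2 change of Krt10 was -0.37 ± 0.23 (adjusted p = 0.233), and 0.05 with library totals. Krt12, the type I keratin of the cornea, had 0 counts in each control and 14, 7 and 8 counts in Wnt1 libraries, at least 2.44-fold higher with controls at 3 counts per library. It did not pass the filter on low counts, and DESeq2 and edgeR with no filter called it higher, while 54.4% of its exon bases overlap an antisense gene, A830036E02Rik, and the reads of the pair cannot be told apart where counting ignores strand. Krt13, Krt2, Krt76, Krt77 and Krt9 had no count in any library.

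Of the 4 stress keratins, which appear in wounded or inflamed epithelium, only Krt17 had enough counts for a test. It had 1 count in each control and 32, 16 and 10 counts in Wnt1 libraries. All Wnt1 libraries were above the controls, and replicate 3 was the lowest of them. The summed counts and library sizes gave a ratio of 14.9 (exact 95% interval 4.84 to 74.2, for counting error only), with an adjusted p of 0.00269. Krt6b had 0, 0 and 1 counts in controls and 2, 0 and 0 counts in Wnt1 libraries, Krt16 had 1 count in a single Wnt1 library, and Krt6a had none. The keratins of hair, inner root sheath and other numbered genes outside these groups made up 27 members. Only Krt222, a keratin-like gene of no assigned type, was tested among them (log2 change 0.14 ± 0.32, adjusted p = 0.752). Of the 27, 15 had no count in any library, and the highest untested count was 7, for Krt83 in Wnt1 replicate 1.

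Urothelium, the lining of the renal pelvis, holds Krt5, Krt14 and Krt20, and its uroplakins did not separate the groups. The uroplakins Upk1a, Upk1b, Upk2 and Upk3a summed to 7.36, 17.9 and 17.3 CPM in controls and to 8.37, 6.3 and 25 CPM in Wnt1 libraries. Control replicate 1 and Wnt1 replicates 1 and 2 were low and the other 3 libraries high, and none of the 4 genes was called. Without both libraries numbered 3, Upk1a (-1.72, adjusted p = 0.0141) and Upk2 (-1.26, adjusted p = 0.0268) were called lower, as were 30.4% of all tested genes. Krt5 and Krt14 were highest in Wnt1 replicate 3, the library with the most uroplakin, whereas Krt20 was lowest of its group there. Of the 10 urothelium markers, none at 0 in all libraries, Cldn4 and Trp63 (20%) were called higher and Snx31 (10%) lower. Snx31 had 14.1, 16.1 and 14.4 CPM in controls and 3.68, 2.73 and 5.61 CPM in Wnt1 libraries. Cldn4 and Trp63 lay above every control in every Wnt1 library. These shares stand beside 22.4% and 18.7% of all tested genes. The list summed to 46.1 to 76.5 CPM in controls and 115 to 208 CPM in Wnt1 libraries. Without Cldn4, which tubules also express, it summed to 26, 46.3 and 52.3 CPM in controls and 22.4, 17.5 and 78.6 CPM in Wnt1 libraries. Skin and hair markers summed to 25.3 to 28.7 CPM in controls and 13.9 to 19.9 CPM in Wnt1 libraries, with 2 of 9 tested, none higher and 1 lower. Of this list, 3 genes (Krt1, Krt2 and Krt10) are themselves among the keratins described here. The tested genes were Tchh, called lower, and Krt10. They made up nearly all of the sum, with means of 21.1 and 5.02 CPM in controls and 12.4 and 3.87 CPM in Wnt1 libraries. Crnn, Krt2, Krtap3-1 and Krtap5-1 were at 0 in every library. The part of these cells in the keratin changes was not tested.

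The 15 Sprr genes lie in a cluster on chromosome 3. Of these, 5 were tested, 2 (40%) were called higher and none lower, and 9 had no count in any library. Sprr2f, 1 of the 2, entered the test through the Wnt1 libraries, so the 40% is favoured by the filter. Of all tested genes, 22.4% were called higher and 18.7% lower. Sprr2f, an Sprr2 gene known in mice for its response to oestrogen in the uterus, had 0 counts in each control and 373, 286 and 210 counts in Wnt1 libraries. In CPM the Wnt1 libraries had 11.8, 10.1 and 7.97, at least 73.4-fold higher than controls set at 3 counts per library. The genes on either side of it were at 0 or at a single count in every library. The adjusted p was 7.96e-05. Sprr1a, an envelope precursor of squamous cells that is also made by injured cells outside the skin, had 3.13, 9.53 and 8.58 CPM in controls and 25.7, 22.6 and 29.2 CPM in Wnt1 libraries. Control replicate 1 was the lowest, every Wnt1 library lay above all controls, and Sprr1a rose by 1.87 ± 0.37 on the log2 scale (adjusted p = 0.00561).

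The sequences before Sprr2f and Sprr1a are shown because they are the Sprr genes that rose, and capitals mark matches to 2 motifs. The motifs are the AP-1 motif (TGANTCA) and the TATA box (TATAAA), searched on both strands in windows from 250 bases before to 50 after each start in RefSeq (GRCm38.p6). The Sprr2f stretch is chr3:92364937-92365186 on the plus strand, and the Sprr1a stretch is chr3:92485896-92486131 on the minus strand.
Sprr2f: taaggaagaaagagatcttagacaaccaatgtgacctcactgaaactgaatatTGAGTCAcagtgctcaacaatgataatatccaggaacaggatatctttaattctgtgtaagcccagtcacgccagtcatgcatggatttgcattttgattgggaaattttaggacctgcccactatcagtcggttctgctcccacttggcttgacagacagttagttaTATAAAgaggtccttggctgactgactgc
Sprr1a: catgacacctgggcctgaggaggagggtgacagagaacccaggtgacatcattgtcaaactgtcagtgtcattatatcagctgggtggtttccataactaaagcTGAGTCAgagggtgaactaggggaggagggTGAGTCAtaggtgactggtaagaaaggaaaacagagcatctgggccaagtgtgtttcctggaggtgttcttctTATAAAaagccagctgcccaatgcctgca
In Sprr2f the AP-1 match starts at -197 and the TATA match at -29. Sprr1a has AP-1 matches at -146 and -116 and a TATA match at -43, counted from its start in RefSeq. Of 32817 windows, 7.81% held the AP-1 motif and 13.6% the TATA box. Windows were given for 54 of the 86 genes, and for 9 of the 15 called higher, the others being Dsc2, Dsg2, Krt15, Krt17, Krt19 and Ppl. AP-1 matches occurred in 2 of those 9, and in 1 of the 7 windows of tested genes that were not called, that of Ivl. The 9 untested Sprr genes with a window, all at 0 counts or, for Sprr2h, at 1, held the AP-1 motif in 7 and the TATA box in 8. The matches were therefore not limited to the Sprr genes that rose. Neither motif occurred in the windows of the Sprr2a copies. The Sprr2a1 window ends at 92215884 and its coding bases start at 92219092, against 92365236 and 92365896 for Sprr2f, so these windows are not placed alike. Among tested genes, the TATA box occurred in 4 of the 9 called higher and 2 of the 7 not called. The motifs TGACGTCA (ATF/CRE, in 1.79% of windows) and CTTTGAT (TCF/LEF, in 3.73%) occurred in none of the tested genes' windows. A match is a description of letters and not evidence of binding.

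The other tested Sprr genes were the 3 copies of Sprr2a, which reads cannot cleanly tell apart. Sprr2a1 shares 92.5% of its 50-base words with Sprr2a2 and 58.6% with Sprr2a3, and none with Sprr2f. The first 75 coding bases, from the GENCODE M21 transcripts on GRCm38, are shown to set the gene that rose beside the copies that were not called, with capitals for bases that differ from Sprr2a1. They lie on the plus strand at chr3:92219092-92219166 for Sprr2a1, chr3:92253905-92253979 for Sprr2a2, chr3:92288588-92288662 for Sprr2a3 and chr3:92365896-92365970 for Sprr2f.
Sprr2a1: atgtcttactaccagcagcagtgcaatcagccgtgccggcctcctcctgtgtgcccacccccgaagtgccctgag
Sprr2a2: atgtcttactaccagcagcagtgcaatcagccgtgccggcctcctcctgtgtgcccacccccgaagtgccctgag
Sprr2a3: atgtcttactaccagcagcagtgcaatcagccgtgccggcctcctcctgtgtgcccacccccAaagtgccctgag
Sprr2f: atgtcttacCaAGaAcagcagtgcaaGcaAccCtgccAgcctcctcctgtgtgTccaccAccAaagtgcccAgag
Over this stretch Sprr2a2 is identical to Sprr2a1, Sprr2a3 differs at 1 base and Sprr2f at 12, which leaves 84% identity. Because the copies share so many words, their counts were also summed. The sum was 202, 425 and 374 counts in controls and 246, 122 and 303 counts in Wnt1 libraries. In CPM this was 9.29, 18.8 and 17.1 against 7.8, 4.32 and 11.5, with control replicate 1 below Wnt1 replicate 3, so the groups overlapped. The log2 change of the sum was -0.94 ± 0.39 (adjusted p = 0.0919), and no copy was called alone (Sprr2a1 -0.84, Sprr2a2 -0.95 and Sprr2a3 -0.81). Without Wnt1 replicate 3, Sprr2a2 and Sprr2a3 were called lower (-1.33 and -1.39). Without both libraries numbered 3, Sprr2a3 was called lower (-1.37, adjusted p = 0.0413) and Sprr2a2 was not (-1.24, adjusted p = 0.0853). The split of shared reads between the copies is uncertain. Summed Sprr2a and the uroplakins shared their low and high libraries, with control replicate 1 the lowest control and Wnt1 replicate 3 the highest Wnt1 library for both, a likeness that was not tested.

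**Figure D3:**
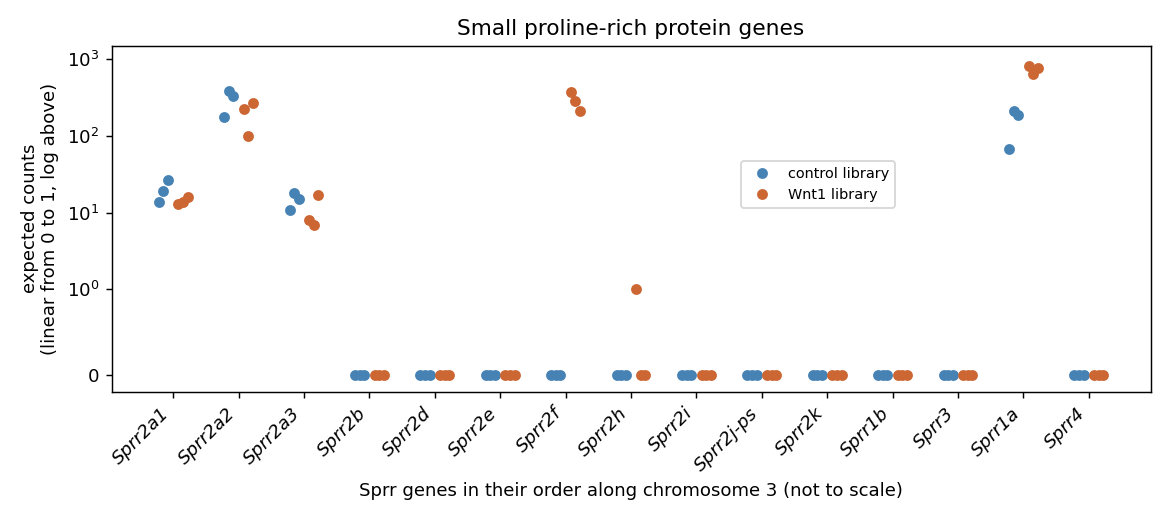
Expected counts of the 15 Sprr genes in each library, in their order along chromosome 3 (not to scale), on an axis that is linear up to 1 count and logarithmic above, with 1 point per library. Sprr2f has 0 counts in the controls and 210 to 373 in Wnt1 libraries, while Sprr2a counts overlap and 9 genes are at 0 throughout.

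Of the other envelope genes, Ppl rose and Evpl and Ivl were not called. Ppl, the plakin that links keratin to the envelope and the membrane, had 16.2, 16.6 and 17.7 CPM in controls and 43.6, 41.9 and 51.7 CPM in Wnt1 libraries. The groups were far apart, with a log2 change of 1.44 ± 0.14 (adjusted p = 0.000179). Evpl, the plakin it forms dimers with, had 43.5, 51 and 43.5 CPM in controls and 33.6, 33.8 and 44.9 CPM in Wnt1 libraries. Wnt1 replicates 1 and 2 were below every control and replicate 3 was within the control range, and the log2 change was -0.30 ± 0.16 (adjusted p = 0.173). Without both libraries numbered 3 it was -0.49 (adjusted p = 0.00324), and with library totals it was 0.12. Per length, the ratio of Ppl to Evpl FPKM was 0.383, 0.334 and 0.417 in controls and 1.33, 1.27 and 1.18 in Wnt1 libraries, so that Evpl led in every control and Ppl in every Wnt1 library. Ivl, a main envelope precursor, had 0, 9 and 1 counts in controls and 11, 20 and 10 counts in Wnt1 libraries. Control replicate 2 overlapped the Wnt1 libraries in CPM and the other controls were at or near 0. The log2 change of Ivl was 1.64 ± 0.87 (adjusted p = 0.174), and 4.18 (adjusted p = 0.0238) without control replicate 2.

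Of the 9 desmosomal cadherins, 2 were tested, Dsg2 and Dsc2, the pair found in simple epithelia, and both were called higher. Among all tested genes 22.4% were called higher. Dsg2 had 15.8, 15.3 and 9.86 CPM in controls and 39.7, 41.7 and 23.4 CPM in Wnt1 libraries. Replicate 3 was the lowest of each group, and the lowest Wnt1 library was still above every control. The log2 change was 1.35 ± 0.27 (adjusted p = 0.00567), and 1.38 (adjusted p = 2.03e-05) without both libraries numbered 3. Dsc2 had 4.55, 3.5 and 2.19 CPM in controls and 7.58, 6.8 and 5.24 CPM in Wnt1 libraries, again with replicate 3 the lowest of each group. Its log2 change was 0.94 ± 0.29 (adjusted p = 0.0341). The call for Dsc2 was lost when control replicate 2 or 3 or Wnt1 replicate 1 or 2 was left out (adjusted p 0.0828, 0.0731, 0.111 and 0.0911), and held without both libraries numbered 3 (0.83, adjusted p = 0.00688). The ratio of Dsg2 to Dsc2 FPKM overlapped between the groups. Of the cadherins of stratified epithelia, Dsg1a, Dsg1c, Dsg3, Dsg4 and Dsc1 had no count, Dsc3 had 1 count in a control, and Dsg1b had 4 counts in Wnt1 replicate 3.

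In the plaque, 5 of 6 genes were tested, 1 (20%) was called higher, 1 (20%) lower and 3 not called. These shares are near those of all tested genes, 22.4% and 18.7%. Dsp, the plakin that ties keratin filaments to the plaque, had 61.8, 65.3 and 57.8 CPM in controls and 101, 109 and 102 CPM in Wnt1 libraries. Libraries lay close together within each group, and Dsp rose by 0.76 ± 0.12 on the log2 scale (adjusted p = 0.00156). Pkp4, an armadillo protein related to the plakophilins that sits mainly at adherens junctions, had 549, 513 and 538 CPM in controls and 293, 269 and 252 CPM in Wnt1 libraries. Every Wnt1 library was well below every control, with a log2 change of -0.98 ± 0.12 (adjusted p = 0.000528), and -0.55 with library totals. Jup, or plakoglobin, which binds the cadherin tails and is a close relative of beta-catenin, had 228, 222 and 230 CPM in controls and 189, 196 and 266 CPM in Wnt1 libraries. Wnt1 replicates 1 and 2 were below the controls and replicate 3 above them. The log2 change of Jup was -0.06 ± 0.15 (adjusted p = 0.786), -0.23 (adjusted p = 0.0422) without both libraries numbered 3, and 0.36 with library totals, so no direction is given for it.

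The desmosomal plakophilins were not called. Pkp2, the plakophilin of simple epithelia and heart, had 36.5, 36.9 and 41 CPM in controls and 39.3, 41.7 and 41.1 CPM in Wnt1 libraries, which overlapped (log2 change 0.09 ± 0.12, adjusted p = 0.567). Pkp3, found in most epithelia, had 25.2, 28.7 and 29.7 CPM in controls and 27.6, 30 and 41.6 CPM in Wnt1 libraries, which also overlapped, with a log2 change of 0.25 ± 0.18 (adjusted p = 0.317). Both were called higher with library totals (0.52 and 0.66), where 44.0% of all tested genes were called higher and 8.92% lower. Pkp1, the plakophilin of stratified epithelia, had too few counts for a test, with 2, 7 and 7 counts in controls and 10, 4 and 10 counts in Wnt1 libraries.

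**Figure D4:**
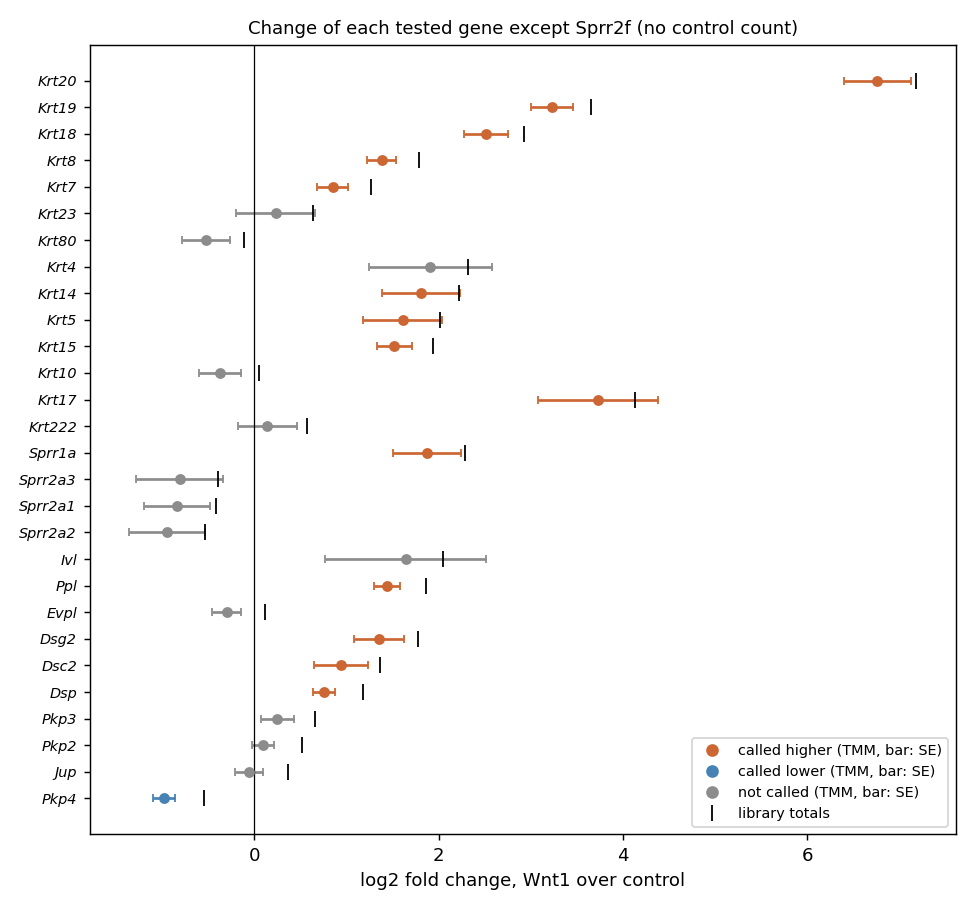
Log2 fold change of each tested gene except Sprr2f, Wnt1 over control, with TMM scaling (points, bars showing the standard error) and with library totals (black ticks). Krt20 changed most at 6.76, Pkp4 is the gene called lower at -0.98, and library totals move every gene to the right and put Jup, Evpl and Krt10 above 0.

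Compared per length, the order of the desmosome genes by mean FPKM in controls was Pkp4, Jup, Pkp2, Pkp3, Dsp, Dsg2, Dsc2 and Pkp1. In Wnt1 libraries the order was the same but for Jup and Pkp4, which changed places. Pkp4 had 114, 105 and 109 FPKM and Jup 65.7, 62.2 and 62.8 FPKM in controls, which were apart in every library. In Wnt1 libraries Pkp4 had 80.6, 74.1 and 66.3 FPKM and Jup 69.7, 77 and 94.8 FPKM, so that these neighbours overlapped. Pkp3, at 12.2, 14.1 and 18.4 FPKM, also overlapped both of its neighbours there, Pkp2 (15.6, 17.1 and 15.8 FPKM) and Dsp (13.1, 14.4 and 12.8 FPKM). The other neighbours did not overlap in either group. The ratio of Dsp to Jup FPKM went from 0.0919, 0.0978 and 0.0851 in controls to 0.188, 0.188 and 0.135 in Wnt1 libraries, with no overlap. Dsp and Jup therefore changed unequally whatever the scaling.

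The libraries numbered 3 were often at an end of their group among the 29 tested genes. The same ranks were not counted over all genes. Wnt1 replicate 3 was the highest of its group for 18 genes, whose median transcript GC content was 55.4%, and the lowest for 7, whose median was 49.5%. Control replicate 3 was the highest for 13 genes (median GC 55%), the lowest for 4 (49.6%) and in the middle for 10 (51.9%). For 2 more, Evpl and Sprr2f, it was tied with another control. The keratins Krt7, Krt8, Krt18 and Krt19 were among those highest in both, and the cadherins Dsg2 and Dsc2 among those lowest in both. With an offset for GC content in the fit, 16 members were called higher and 3 lower, and the share of all genes called there was not counted. The part of GC content in the differences between replicates was not tested.

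Genes that work beside these members were counted from 4 lists. Of 17 keratin partners and hemidesmosome genes, 7 (41.2%) were called higher and 1 (5.88%) lower, where 22.4% and 18.7% of all tested genes were. Their median log2 change was 0.22, against 0.05 for all tested genes. Cdh3, or P-cadherin, went from 10.7 ± 0.441 CPM (SD, n = 3) to 58.5 ± 8.39 CPM, a log2 change of 2.46. Col17a1, a transmembrane collagen of hemidesmosomes, went from 0.119 ± 0.112 to 6.17 ± 0.758 CPM, a log2 change of 5.62. It was below the filter's level in controls and entered the test through the Wnt1 libraries. Itgb4, the hemidesmosome integrin, and Plec, the plakin that binds it to keratin, rose by 1.72 and 1.07 on the log2 scale. Dst, the only one called lower and named after its values were seen, fell by 0.89. It is a plakin whose epithelial form lies in hemidesmosomes, and it was not called with library totals (-0.46, adjusted p = 0.146).

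Of 15 other intermediate filament genes, 11 were tested, with 7 (63.6%) called higher, none lower and a median log2 change of 0.73, where 22.4% and 18.7% of all tested genes were called. Vim, the filament of mesenchymal cells and of dedifferentiated tubules, had 48.5, 47.8 and 55.1 CPM in controls and 148, 181 and 196 CPM in Wnt1 libraries, a log2 change of 1.80. The lamins Lmnb1 and Lmna rose by 1.41 and 0.66 on the log2 scale, and Nes, or nestin, by 0.80. Nefh and Nefl, named after their values were seen, were also called higher. They averaged 0.15 and 0.316 CPM in controls and entered the test through the Wnt1 libraries. Leukocytes also hold Vim, and 7 of 8 leukocyte markers were called higher, with sums of 141 to 162 CPM in controls and 1076 to 1262 CPM in Wnt1 libraries. Among these markers S100a9, at 0, 0.177 and 0.183 CPM in controls, entered the test through the Wnt1 libraries. The part of leukocytes in the Vim change was not tested.

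Of 32 other cornification genes, 8 were tested and 8 had no count in any library. Calml3 (log2 change 2.55), Sbsn (2.13) and Lypd3 (3.14, named after its values were seen) were called higher, and Aqp3 (-1.35) and Tchh (-0.77) lower. With 8 genes tested these are 37.5% and 25%, where 22.4% and 18.7% of all tested genes were called. Lypd3 had 0, 0.222 and 0 CPM in controls, and Sbsn 0.322, 0.177 and 0.548 CPM. Both entered the test through the Wnt1 libraries, so the 37.5% is favoured by the filter. Calml3 is a calmodulin-like protein of epithelial cells, Sbsn a secreted protein of the upper epidermis, and Aqp3 a water and glycerol channel that the collecting duct also uses. Tchh, a hair follicle protein, was not called with library totals (-0.35, adjusted p = 0.145). Among 18 regulators of stratified epithelia, 16 were tested, with 10 (62.5%) called higher, 1 (6.25%) lower and a median log2 change of 0.93. The one called lower was Zfp750 (-0.87), and without both libraries numbered 3 Ovol1 (-1.21) was called lower as well, both named after their values were seen. Maff, a small Maf factor, had 2.02, 2.13 and 3.33 CPM in controls and 15.9, 17.5 and 15.9 CPM in Wnt1 libraries. Sox9, a factor of progenitor and injured epithelium, rose by 4.99 on the log2 scale, and the epithelial factors Klf5 and Elf3 by 1.66 and 1.62. Sox9 averaged 0.484 CPM in controls, and Fosl1, called higher and named after its values were seen, 0.0449 CPM. Both entered the test through the Wnt1 libraries. Trp63, the master regulator of basal cells, had 1.15, 1.42 and 1.55 CPM in controls and 3.01, 2.73 and 2.24 CPM in Wnt1 libraries, and rose by 0.95.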

How the data were processed

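Gene expression was measured in 3 control and 3 Wnt1 kidney libraries of messenger RNA, grouped by the treatment label and numbered 1 to 3 in the order of the records. Per the submitters' processing notes, the tools were HISAT2, RSEM, StringTie 1.3.1, Bowtie2 2.2.8 and fastp 0.18.0, and the build was mm10. Not given in the sources used here are their roles, the annotation and whether counting was stranded. Per gene and library, the authors deposited an expected count (9.02% of these were not whole within 1e-06) and an FPKM value, scaled by length and library total.

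Expected counts were rounded and analysed in R 4.3.3 with edgeR 4.0.16, in which filterByExpr, TMM factors and the robust quasi-likelihood test, two-sided, were applied to the whole table. P-values were adjusted by Benjamini-Hochberg over 14432 genes and called under 0.05. Standard errors of log2 changes were derived from the coefficient and the F statistic, so they hold no information beyond the p-value. Positions and transcripts come from GENCODE M21 (22128 of 22183 identifiers matched), and promoter windows from RefSeq.

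The genes and lists were chosen with earlier results of these data known, so none gives independent support. Values in every library are given for a fixed set of keratins, desmosome and envelope genes and for every other member called. Up to 4 called genes of each other list with the smallest p are named, many by log2 change or mean only. Defining markers such as Trp63 are named beside them. Values of Krt4, Krt10, Krt12, Krt23, Krt80 and Sprr2a, and genes marked in the text, were added after they were seen. Alternatives were DESeq2 1.42.0, median-ratio factors, library totals, no filter, a stricter filter (every library of 1 group at or above 1 CPM), limma 3.58.1 on log2(FPKM + 1) and log2(FPKM + 0.1), and leaving out each library or both numbered 3. An offset for GC content and the summed Sprr2a copies were added after seeing the data.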

Additional observations from a re-analysis of the deposited data

How the results depend on the processing

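The count of genes called higher, 15, ran from 13 to 15 as each library was left out in turn. The count called lower, 1, ran from 1 to 5, the keratins called from 8 to 10 (9 with all libraries), the Sprr genes called from 2 to 4 (2 with all) and the desmosome genes called from 3 to 4 (4 with all). Without Wnt1 replicate 3 the genes called lower were 5 (Pkp4, Evpl, Krt80, Sprr2a2 and Sprr2a3) and the Sprr genes called were 4. Without both libraries numbered 3 the genes called lower were also 5 (Pkp4, Evpl, Krt80, Jup and Sprr2a3). DESeq2 and edgeR with no filter each called 16 genes higher, the 15 and Krt12. DESeq2 called 2 lower (Pkp4 and Sprr2a2), and the GC offset 3 (Pkp4, Evpl and Krt80). Without both libraries numbered 3, 32.0% of all tested genes were called higher and 30.4% lower. The share of all genes called was not counted in the fits without 1 library, with no filter or with the GC offset. A change in the count of members called there cannot be told from a change in that share. The cause of these differences was not tested. Across 16 alternatives, 417 values of single genes were computed, of which 377 kept their direction and side of the threshold, 6 lost their call, 20 gained one and 14 changed sign.

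The 14 that changed sign belong to 5 genes, none of them called with all libraries and TMM scaling. Log2 changes with library totals, log2(FPKM + 1) and log2(FPKM + 0.1) were 0.12, 0.10 and 0.11 for Evpl and 0.36, 0.32 and 0.33 for Jup, and with library totals 0.05 for Krt10. For Jup they were 0.03, 0.03 and 0.01 without control replicate 3, Wnt1 replicate 1 and Wnt1 replicate 2. Krt222 was at -0.05 with the GC offset and at -0.05 without Wnt1 replicate 2. Krt23 was at -0.42 without Wnt1 replicate 3 and at -0.29 without both libraries numbered 3. Leaving out 1 library at a time gave -0.23 to 0.03 for Jup, -0.05 to 0.30 for Krt222 and -0.42 to 0.52 for Krt23. No paired analysis was possible because the replicate numbers follow the order of the records and the labels pair no control with a Wnt1 library.

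Depth limits the genes near the filter: 3 counts were worth 0.0951 to 0.138 CPM, and for a gene at 0 in every library a lower level is not detectable. Gene copies that share words, Sprr2a above all, cannot be separated here, and antisense reads cannot be told from sense reads where strand was not used.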
